A study of Mus musculus with 31 samples.

Results

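Lysosomal genes were examined in the caudate putamen (CPu), the dorsal part of the striatum, of 31 female mice. The set comprised 33 genes of the 52636 gene identifiers measured, chosen by name: acid sphingomyelinase (Smpd1), acid ceramidase (Asah1), 24 further enzymes, activators and carriers of lysosomal breakdown, 5 other proteins of the lysosomal membrane and the regulators Tfeb and Grn. The choice used gene names and function and no threshold on expression. The mice were 8 to 11 weeks old and of the strain C57BL/6NTac-Brd1, and were either wildtype (WT) or heterozygous for a germline deletion within Brd1 (Brd1+/-), a gene encoding a bromodomain scaffold of histone acetyltransferase complexes. They received saline (vehicle) or the tricyclic antidepressant imipramine (IMN) at 10 mg/kg. The groups held 8 WT vehicle, 7 Brd1+/- vehicle, 8 WT IMN and 8 Brd1+/- IMN mice. Mice of all 4 groups, controls included, were injected under the skin on successive days before behavioral tests and sacrificed soon after a forced swim test, so that no group was free of stress or injection. RNA came from punched tissue of the right CPu, and the deletion, being germline, was not limited to a cell type.

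Lysosomes are acidic organelles in which hydrolases take apart lipids, glycans and proteins delivered by endocytosis and autophagy, and neurons, glia and blood vessel cells all have them. Acid sphingomyelinase cleaves sphingomyelin to ceramide, and acid ceramidase removes the ceramide. Imipramine is a cationic amphiphilic drug that collects in lysosomes, where such drugs detach acid sphingomyelinase from the inner membranes and lead to its proteolysis. That action is on the protein, which was not measured here, and the values below are mRNA. Many lysosomal genes share an E-box promoter element, CACGTG, bound by the transcription factor Tfeb, whose entry into the nucleus is restrained by mTORC1 at the lysosomal surface.

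Expression was given as TPM, a relative abundance scaled to transcript length and library total, so that levels can be compared between genes. All 33 genes were detected in all 31 mice. Psap, the precursor of the saposins that present sphingolipids to their hydrolases, had the highest level (730.2 ± 126 TPM, SD, n = 31), followed by the cysteine protease Ctsb (206 ± 35.1 TPM) and the membrane glycoprotein Lamp1 (203 ± 43.8 TPM). The lowest levels were those of the heparan sulfate enzymes Sgsh (1.68 ± 0.731 TPM) and Naglu (3.66 ± 0.677 TPM) and of alpha-galactosidase A, Gla (4.38 ± 1.19 TPM). Smpd1 stood 12th, at 46.4 ± 9.88 TPM, and Asah1 18th, at 29.8 ± 8.11 TPM. Between these neighbours in the order of levels the spread was wide: the 3 genes ranked after Psap ranged over 143 to 319 TPM (Ctsb), 147 to 363 TPM (Lamp1) and 160.2 to 303 TPM (Ctsd) and overlapped one another. By role, median levels were 78.1 TPM for the 7 proteases and protein-processing enzymes, 38.3 TPM for the 5 membrane proteins, 23.3 TPM for both the 9 sphingolipid and the 3 cholesterol genes, and 16.7 TPM for the 7 glycan-degrading enzymes. Variation between mice was largest for Sgsh (coefficient of variation, CV, 43.6%), lysosomal acid lipase Lipa (42.0%) and Tfeb (41.1%), and smallest for the hexosaminidase subunit Hexa (8.65%), the mannosidase Man2b1 (9.89%) and protective protein Ctsa (10.3%).

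**Figure D1:**
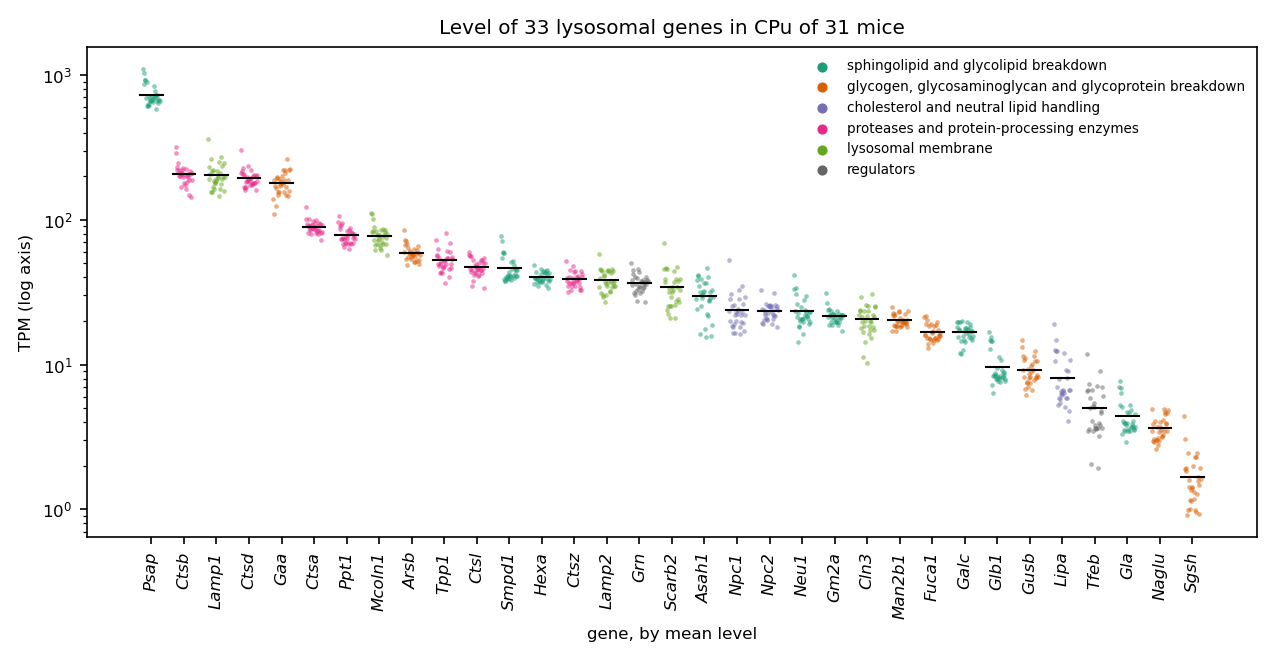
TPM on a log axis for each of the 33 genes, with 1 point per mouse (n = 31), the mean as a line and colors for the role of the gene. Psap lies apart at 730.2 TPM, Ctsb follows at 206 TPM, and Sgsh is lowest at 1.68 TPM.

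Promoter windows from RefSeq, on GRCm38.p6 and running from 250 bases before to 50 bases after the transcription start, were at hand for 30 of the 33 genes (all except Asah1, Ctsb and Npc1). CACGTG, which is the same on both strands, occurred in 11 of the 30 genes (36.7%) and in 2187 of all 27025 genes with a window (8.09%). Its extended form TCACGTGA, which contains CACGTG, occurred in 5 of the 30 (16.7%), namely Cln3, Ctsa, Ctsd, Gla and Mcoln1, against 1.12% of all genes. These matches are a description of the sequence and show no binding. The starts are those of RefSeq. In the GENCODE annotation, 27 of the 30 bases printed for Naglu, CACGTG included, lie within the gene, and the other stretches printed lie before it. All copies in Ctsa, Cln3 and Ctsl also lie within their genes in that annotation. The stretches below are those of Lamp1, which held 4 copies, of Gla, which was lower in Brd1+/- vehicle mice, of Glb1, a galactosidase like it, of Naglu, which was higher in IMN administered Brd1+/- mice, and of Smpd1, whose window held no copy. Each is written 5′ to 3′ on the strand of the gene, with capitals for CACGTG or, where present, TCACGTGA.
Lamp1 (chr8:13159088-13159160, plus strand): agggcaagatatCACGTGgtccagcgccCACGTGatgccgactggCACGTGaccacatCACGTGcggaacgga
Gla (chrX:134601182-134601244, minus strand): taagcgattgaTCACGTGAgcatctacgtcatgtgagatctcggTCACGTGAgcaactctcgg
Glb1 (chr9:114401018-114401047, plus strand): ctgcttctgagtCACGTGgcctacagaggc
Naglu (chr11:101070009-101070038, plus strand): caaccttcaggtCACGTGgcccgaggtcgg
Smpd1 (chr7:105554260-105554359, plus strand): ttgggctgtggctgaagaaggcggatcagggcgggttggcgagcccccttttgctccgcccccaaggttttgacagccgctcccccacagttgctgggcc

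Some WT vehicle punches stood apart from the other libraries, which touches every comparison with that group. In mice 1, 2, 4, 5 and 7 of this group, a score of 10 markers of cortical excitatory neurons (mean log2(TPM + 1)) was 5.66 to 6.26, above the highest of the other 3 groups (5.07), and a score of 10 markers of striatal projection neurons was 3.42 to 7.94, below the lowest of the other 3 groups (8.11). Mice 6 and 8 of the group had cortical scores of 1.5 or less and striatal scores of 8.99 or more. The summed TPM of the cortical markers was 112 to 2253 in WT vehicle, 118 to 322 in Brd1+/- vehicle, 101 to 1143 in WT IMN and 104 to 466.1 in Brd1+/- IMN, with Emx1 at 0 in some mice. That of the striatal markers was 286 to 10410, 8457 to 9809, 5033 to 9277 and 6840 to 9706 in the same order, with none at 0. All 10 microglial markers were lower on average in WT vehicle than in Brd1+/- vehicle, their summed TPM being 229 to 352 and 314 to 432. All 10 oligodendrocyte markers had negative fold changes in Brd1+/- vehicle mice (median −0.35, none called), with summed TPM of 1507 to 10070 in WT and 1450 to 4339 in Brd1+/- vehicle mice, and their part in the results was not tested. WT vehicle mouse 7, labelled female, had 26.8 TPM over 4 Y-linked genes, against at most 0.188 TPM in any other mouse. Brd1 itself was lower in Brd1+/- than in WT mice under vehicle (log2 fold change −0.71 ± 0.10, SE, adjusted p = 0.0556) and under IMN (−0.60 ± 0.08, adjusted p = 0.0396, limma).

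The first comparison asked whether the deletion changed lysosomal mRNA in undrugged mice. Under vehicle, 7 of the 33 genes were lower in Brd1+/- than in WT mice at the nominal threshold of p under 0.01 and none was higher. Of all 23200 genes tested, 12.1% were lower and 13.6% changed in either direction at this threshold. The 7 were Smpd1, Gla, Neu1 and Psap of sphingolipid breakdown, the lipase Lipa, and the lumenal enzymes Tpp1 and Ppt1. All 7 had negative fold changes after median-of-ratios scaling and after quantile normalization. Only 2 of the calls held under each, where 5.19% and 4.97% of all genes were lower. Median-of-ratios scaling brought Smpd1 from −0.46 to −0.27, Ppt1 from −0.32 to −0.13 and Tpp1 from −0.26 to −0.08. None of the 33 passed an FDR of 5% (0.0% of all genes did), and 13 of them had a p under 0.05, where 30.9% of all genes did. The FDR count turned on the setting: 5 of the 33 passed with a mean of at least 1 TPM as the filter, 9 with all 4 groups in one fit, 13 with sample quality weights, and 10 and 11 without WT vehicle mouse 6 or 8. The share of all genes with a p under 0.01 rose in these settings too, from 13.6% to 16.4%, 19.7%, 26.5%, 19.9% and 22.4% in the same order. The share of all genes passing an FDR of 5% was not computed for these settings, so the FDR counts have no background.

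Smpd1 TPM in the 8 WT vehicle mice was 76.7, 71.8, 54.6, 59.2, 59.8, 39.1, 58.8 and 38.0, in the order of their numbers. In Brd1+/- vehicle mice it ran from 37.7 to 43.6 TPM with a median of 40.6, in WT IMN mice from 38.6 to 52.2 with a median of 40.9, and in Brd1+/- IMN mice from 39.7 to 48.5 with a median of 43.3. So 6 of the 8 WT vehicle mice lay above every mouse of the other 3 groups, whereas mice 6 and 8, the pair with low cortical scores, lay within the range of Brd1+/- vehicle mice. Mean levels were 57.2 ± 13.7 TPM (SD, n = 8) in WT vehicle and 40.4 ± 1.94 TPM (SD, n = 7) in Brd1+/- vehicle mice, a log2 fold change of −0.46 (SE 0.13, adjusted p = 0.0556, limma). The exact permutation test of the same difference gave p = 0.00746, or 0.0298 adjusted over the 4 pairwise comparisons of Smpd1 (smallest p possible 0.000155). With the cortical score as a covariate the log2 fold change of Smpd1 was −0.20 (adjusted p = 0.434, limma), with the striatal score −0.21 (adjusted p = 0.587, limma), and with mice 1, 2, 4, 5 and 7 omitted, an alternative chosen after seeing the data, −0.10 (adjusted p = 0.9995, limma). Smpd1 lies at chr7:105554360-105558389 on the plus strand (GRCm38, ENSMUSG00000037049) and shares no exon bases with another annotated gene.

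Asah1, which acts on the product of Smpd1, showed none of this. Its TPM ran from 16.3 to 41.5 (median 33.1) in WT vehicle, from 25.5 to 38.8 (median 30.4) in Brd1+/- vehicle, from 15.4 to 46.4 (median 27.1) in WT IMN and from 15.9 to 32.5 (median 28.5) in Brd1+/- IMN mice. The 4 groups overlapped throughout. Its log2 fold change under vehicle was 0.03, with a 95% confidence interval from −0.33 to 0.39, so that a change within these bounds in either direction cannot be set aside at this sample size.

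Of the other sphingolipid genes, Psap ran from 606 to 1093 TPM (median 905) in WT vehicle and from 607 to 705 TPM (median 660.2) in Brd1+/- vehicle mice, and 6 WT vehicle mice were above every mouse of the other groups. The sialidase Neu1 ran from 21.2 to 41.2 TPM (median 28.6) against 14.4 to 24.8 TPM (median 19.9), with 5 WT vehicle mice above the Brd1+/- vehicle range. Gla ran from 3.29 to 7.69 TPM (median 5.82) against 2.90 to 4.68 TPM (median 3.83). In each of these, as in Smpd1, mice 6 and 8 of the WT vehicle group lay below the other mice of their group. Log2 fold changes were −0.41 ± 0.11 (SE) for Psap and −0.53 ± 0.14 for Neu1, both with adjusted p = 0.0556, and −0.47 ± 0.15 for Gla with adjusted p = 0.0643 (limma). The beta-galactosidase Glb1 had a fold change of the same size (−0.50 ± 0.18) but missed the nominal threshold (adjusted p = 0.0775, limma). Its 6 highest WT vehicle mice were above, and mice 6 and 8 below, the Brd1+/- vehicle range of 8.00 to 8.74 TPM, and its exons overlap those of Tmppe on the same strand. Galc, Hexa and the GM2 activator Gm2a did not pass, at −0.19, −0.03 and −0.14.

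Lipa, which hydrolyses cholesteryl esters and triglycerides, had the largest fold change of the set (−0.73 ± 0.20, SE, adjusted p = 0.0556, limma). It ran from 5.25 to 19.1 TPM (median 12.4) in WT vehicle and from 5.43 to 8.00 TPM (median 6.19) in Brd1+/- vehicle mice. The cholesterol carriers that act after it did not pass, with log2 fold changes of −0.30 for Npc1 and 0.01 for Npc2. Ppt1, a thioesterase that strips fatty acids from proteins, ran from 73.1 to 106 TPM (median 90.8) against 64.6 to 75.5 TPM (median 69.2), a log2 fold change of −0.32 ± 0.08 with the smallest p of the set (0.00103, adjusted p = 0.0556, limma). Ppt1 shares exon bases with Cap1 on the opposite strand, and whether the libraries kept strand is not given in the sources used here. The tripeptidyl peptidase Tpp1 ran from 48.0 to 72.5 TPM (median 55.5) against 42.6 to 52.0 TPM (median 46.1), a log2 fold change of −0.26 ± 0.09 (adjusted p = 0.0701, limma). Both enzymes are mutated in childhood neuronal ceroid lipofuscinoses. The call of Tpp1 held in 5 of the 15 fits that left out 1 mouse each and that of Gla in 8, while those of Smpd1, Ppt1, Neu1, Psap and Lipa held in all 15.

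None of the 7 glycan-degrading enzymes, 5 membrane proteins or 2 regulators passed under vehicle. Fold changes were −0.40 for Sgsh, −0.39 for the glucuronidase Gusb and −0.50 for the membrane receptor Scarb2, which carries glucocerebrosidase to the lysosome, with p between 0.0121 and 0.0470 and adjusted p between 0.0795 and 0.156 (limma). Tfeb differed by −0.37 ± 0.23 (SE, adjusted p = 0.278, limma) and Grn, the progranulin gene, by −0.13 ± 0.12. The glycogen-degrading Gaa was the member with the most positive value, 0.09 ± 0.12. Of the 7 genes called, Gla alone held CACGTG in its window.

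**Figure D2:**
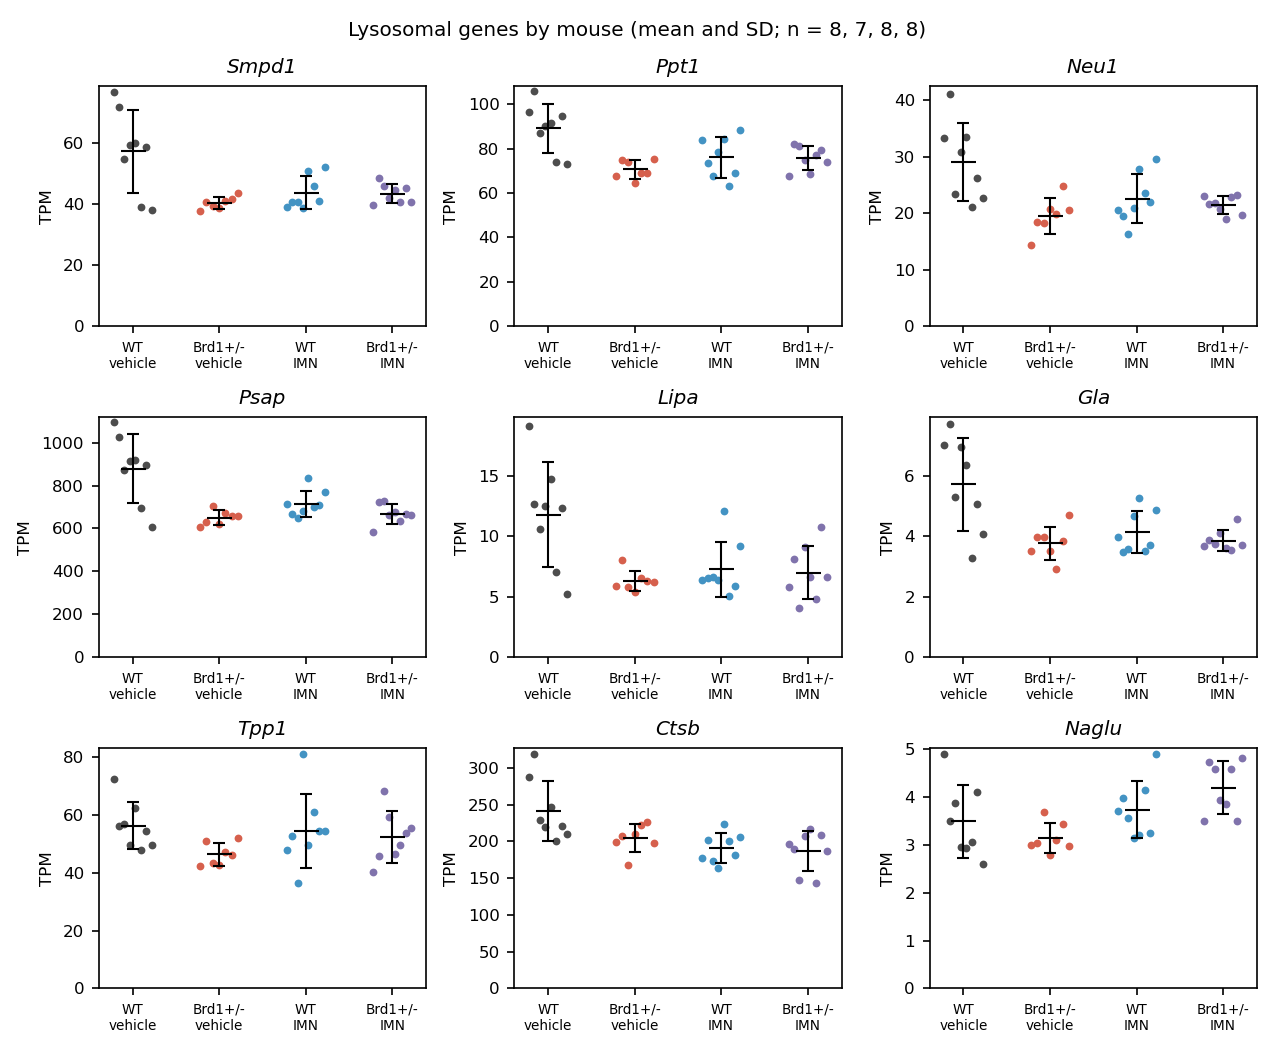
TPM in each mouse for Smpd1 and the 8 other genes that passed the nominal threshold in any comparison of 2 groups, by group, with mean and SD (n = 8, 7, 8 and 8). For Smpd1, 6 WT vehicle mice lie above 52.2 TPM, the highest value of the other groups, and 2 lie at 39.1 and 38.0 TPM.

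The spread within WT vehicle mice was part of the same pattern. Of the 33 genes, 27 had their largest CV in this group, and the median CV was 20.4% there against 11.5% to 12.3% in the other 3 groups. In 21 of the 33, mice 1, 2, 4, 5 and 7 were all above both mice 6 and 8. In 8 of the 33, 6 WT vehicle mice were above every Brd1+/- vehicle mouse, and in none were all 8. None of these counts was made over all genes, so they do not show a trait particular to the set. The summed TPM of the set was 2686 ± 418 (SD, n = 8) in WT vehicle, 2217 ± 104 (n = 7) in Brd1+/- vehicle, 2342 ± 168 (n = 8) in WT IMN and 2293 ± 138 (n = 8) in Brd1+/- IMN mice. In tissue pieces, more cells of a type and more RNA per cell cannot be told apart.

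A shift of all genes accompanied these values. Under vehicle, 30 of the 33 fold changes were below 0 with a median of −0.22, where the median of all genes tested was −0.13 and 72.8% of them were below 0. Median-of-ratios scaling, which sets the typical gene to no change, brought the median of all genes to 0.00 and that of the 33 to −0.03, with 19 of the 33 below 0. Only Smpd1 and Lipa were then called, where 5.19% of all genes were lower and 9.19% changed in either direction. Quantile normalization gave a median of −0.02 for the set, 17 of 33 below 0, and calls for Psap and Lipa, where 4.97% of all genes were lower and 9.53% changed. With the cortical score as a covariate Ppt1 alone was called, with the striatal score none, with the microglial score Lipa alone, and without WT vehicle mice 1, 2, 4, 5 and 7 none. The share of all genes called moved too, from 13.6% to 2.81%, 1.29%, 3.95% and 0.441% in the same order. The median of the 33 was −0.05, −0.12, −0.27 and −0.02, so that with the microglial score calls were lost without smaller fold changes. Without WT vehicle mouse 7 alone, 6 of the 7 calls held.

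**Figure D3:**
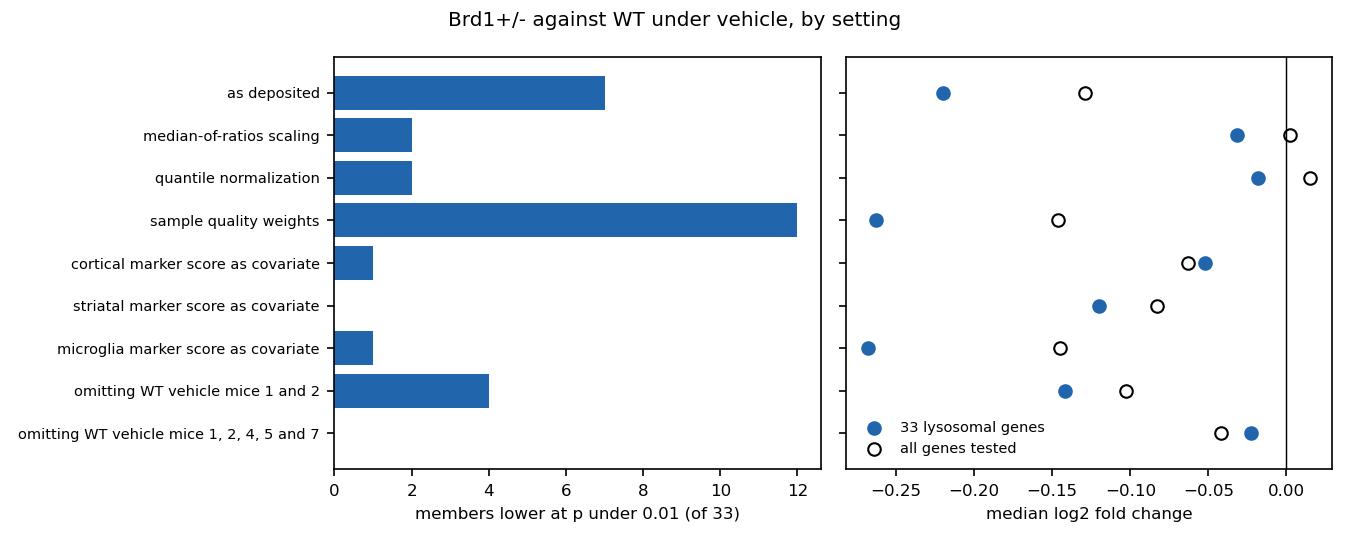
Number of the 33 genes lower in Brd1+/- than in WT vehicle mice at p under 0.01 (left) and median log2 fold change of the 33 genes and of all genes tested (right), by setting. Over the settings plotted, the count runs from 0 to 12 and the median of the 33 from −0.27 to −0.02.

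**Figure D4:**
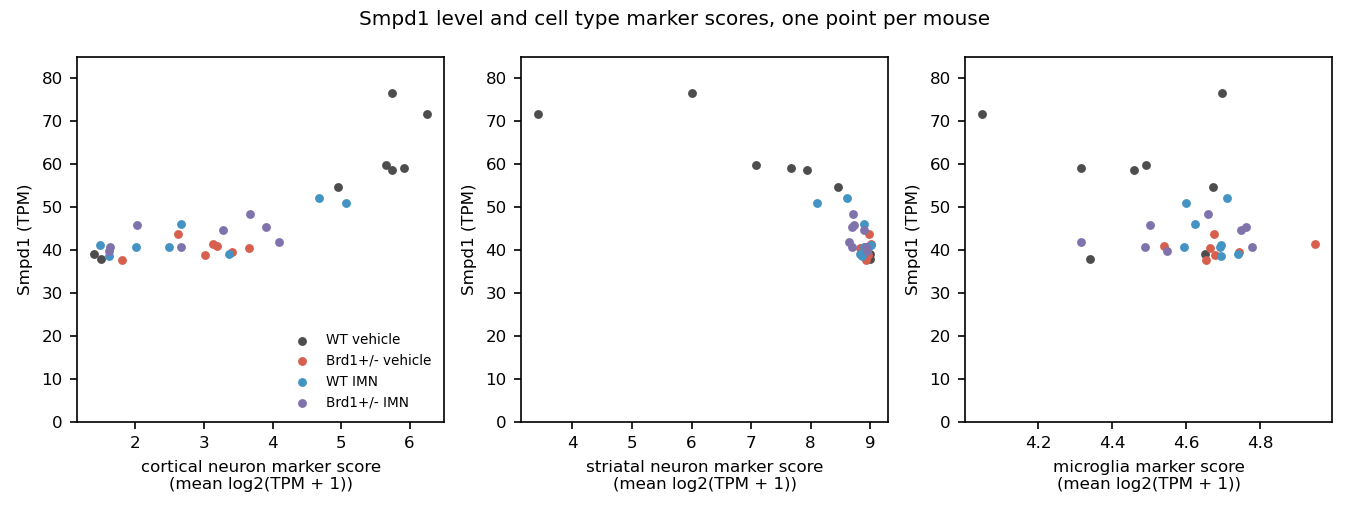
Smpd1 TPM of each mouse against its marker scores for cortical neurons, striatal neurons and microglia (mean log2(TPM + 1) of 10 genes each), colored by group. The 6 WT vehicle mice with 54.6 TPM or more have cortical scores of 4.96 or above, and the 2 highest WT IMN mice, at 52.2 and 51.0 TPM, have scores of 4.68 and 5.07.

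In IMN administered mice, no lysosomal gene separated the genotypes. None of the 33 passed the nominal threshold (0.703% of the 23339 genes tested did), none had a p under 0.05 (3.92% of all genes did), and none passed an FDR of 5% (0.00428% of all genes, which is Brd1 alone). The median fold change of the 33 was 0.00, against −0.03 for all genes. Smpd1 was 43.7 ± 5.39 TPM (SD, n = 8) in WT IMN and 43.4 ± 3.12 TPM (SD, n = 8) in Brd1+/- IMN mice, a log2 fold change of 0.00 with a 95% confidence interval from −0.15 to 0.15 (exact permutation p = 0.969). For Psap the interval was −0.23 to 0.03, for Ppt1 −0.15 to 0.15 and for Lipa −0.43 to 0.32. These intervals do not reach the fold changes that the same genes had under vehicle (−0.46, −0.41, −0.32 and −0.73), which come from other mice. The vehicle values have 95% intervals of their own, however. These overlap the intervals under IMN for Psap (−0.646 to −0.173), Ppt1 (−0.492 to −0.151) and Lipa (−1.157 to −0.308). For Tpp1 the interval under IMN, −0.32 to 0.23, includes the vehicle value of −0.26. The difference between the 2 genotype effects, tested as the interaction, passed for Smpd1 and Ppt1 at the nominal threshold, and did not for Psap (0.31) or Lipa (0.68). Tfeb had the smallest p of the set, with 5.28 ± 1.97 TPM in Brd1+/- against 3.92 ± 1.42 TPM in WT IMN mice (adjusted p = 0.998, limma). Cortical scores overlapped between these 2 groups, at 1.49 to 5.07 in WT and 1.62 to 4.09 in Brd1+/- mice.

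The next comparison asked whether a drug that acts on acid sphingomyelinase went with a change in its mRNA or in that of its neighbours. In WT mice, 1 of the 33 genes, Ctsb, was lower with IMN than with vehicle, where 5.6% of the 23579 genes tested were lower and 6.95% changed. None of the 33 passed an FDR of 5% (0.00424% of all genes did), and 13 had a p under 0.05 (23.1% of all genes did). Ctsb, a protease that also trims other lysosomal proteins, ran from 200.2 to 319 TPM (median 225) in WT vehicle and from 164 to 224 TPM (median 191) in WT IMN mice. Its log2 fold change was −0.33 ± 0.10 (SE, adjusted p = 0.141, limma), and its exons overlap those of Fdft1 on the opposite strand. It was −0.16 (not called) without WT vehicle mice 1, 2, 4, 5 and 7, and −0.20 (not called) after median-of-ratios scaling. In 4 other settings more genes were called, Ctsb and Smpd1 among them: 9 with all 4 groups in one fit, 10 with sample quality weights, and 9 and 8 without WT vehicle mouse 6 or 8. In these settings 13.5%, 20.3%, 13.6% and 15.3% of all genes were called at p under 0.01, in the same order. An FDR of 5% was passed by 6, 10, 1 and 6 of the 33, and that share of all genes was not computed. Ctsb was called together with Tfeb without WT vehicle mouse 4, and with Tfeb and Lipa without WT IMN mouse 5. All 5 erythrocyte markers were lower on average with IMN in WT mice (median −0.54, 2 called), and their part in these values was not tested.

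Smpd1 was 21.8% lower in WT IMN than in WT vehicle mice, a log2 fold change of −0.35 ± 0.13 (SE) that missed the nominal threshold (adjusted p = 0.156, limma). The exact permutation test gave p = 0.026, or 0.0519 adjusted over the 4 comparisons. Within WT IMN mice, Smpd1 was highest in mice 5 and 8, at 51.0 and 52.2 TPM, which were also the mice with the highest cortical scores of their group. The same pair led the group for Ppt1, Neu1, Psap, Lipa and Gla, but not for Tpp1. Only genes called under vehicle were looked at in this way, and how often the pair led over all genes was not counted. As the WT vehicle mice enter both this comparison and the genotype comparison under vehicle, the pair of comparisons is not independent. Values in this comparison were −0.28 for Psap, −0.59 for Lipa, −0.34 for Neu1, −0.36 for Gla and −0.22 for Ppt1, none of them past the threshold. Over the set, 29 of 33 fold changes were below 0 with a median of −0.15 (all genes, −0.08), which became 19 of 33 with a median of −0.02 after median-of-ratios scaling and 13 of 33 with a median of 0.06 without WT vehicle mice 1, 2, 4, 5 and 7.

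In Brd1+/- mice a single gene passed: Naglu, the alpha-N-acetylglucosaminidase of heparan sulfate breakdown, was higher with IMN. Of the 23020 genes tested, 0.869% were higher and 1.83% changed, 7.09% had a p under 0.05 against 3 of the 33 genes, and none passed an FDR of 5% (0.0%). Naglu ran from 2.79 to 3.69 TPM (median 3.04) with vehicle and from 3.50 to 4.82 TPM (median 4.27) with IMN, so that 6 of the 8 IMN mice were above every vehicle mouse. Its log2 fold change was 0.32 ± 0.09 (SE, adjusted p = 0.404, limma), positive in all 15 fits that left out 1 mouse each. With the striatal marker score as a covariate it was 0.30 and not called (adjusted p = 0.983, limma). Between these groups all 10 striatal markers were below 0 with IMN (median log2 fold change −0.20, 1 called, Drd1) and all 10 oligodendrocyte markers above 0 (median 0.51, none called), and their part in the result was not tested beyond that covariate. In WT mice Naglu ran from 2.60 to 4.91 TPM (median 3.28) with vehicle and from 3.15 to 4.91 TPM (median 3.64) with IMN, and its log2 fold change was 0.08 ± 0.11. The difference between these effects was 0.24 ± 0.14 and did not pass (adjusted p = 0.387, limma). Other members that act in heparan sulfate breakdown had values of 0.17 ± 0.11 (Sgsh) and 0.23 ± 0.11 (Gusb), and neither passed.

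Smpd1 in Brd1+/- mice went from 40.4 ± 1.94 TPM (SD, n = 7) with vehicle to 43.4 ± 3.12 TPM (SD, n = 8) with IMN, and the groups overlapped. This was a log2 fold change of 0.10 with a 95% confidence interval from −0.01 to 0.22 (adjusted p = 0.751 by limma, exact permutation p = 0.0441, 0.0588 adjusted over the 4 comparisons). Asah1 differed by −0.27 ± 0.14 (SE, adjusted p = 0.750, limma). Over the set, 24 of 33 fold changes were above 0 with a median of 0.05, where the median of all genes was 0.01.

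**Figure D5:**
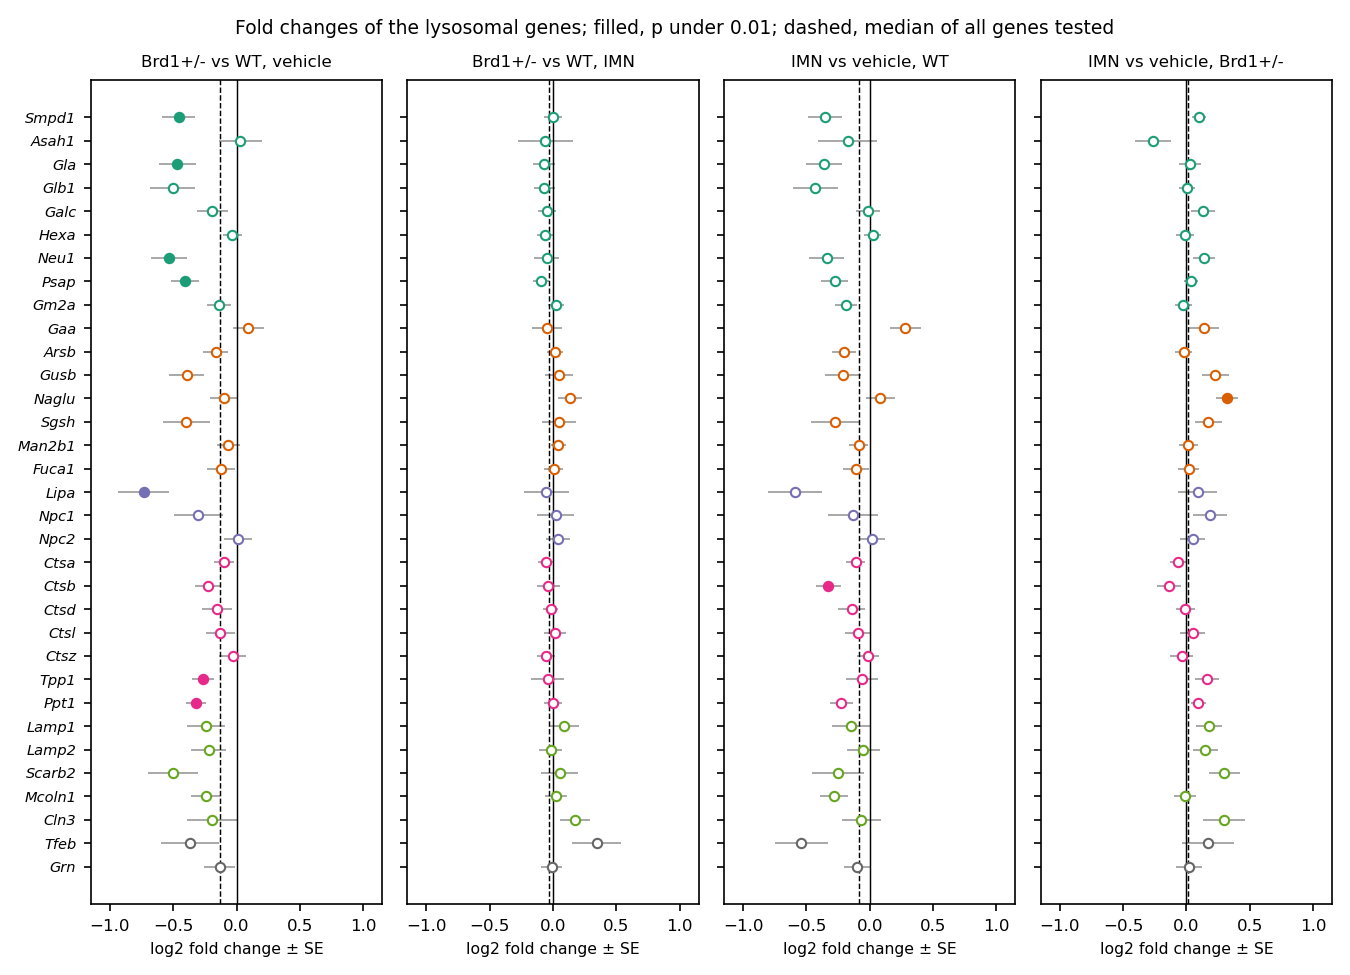
Log2 fold change with SE of each of the 33 genes, by role, in the 4 comparisons of 2 groups, each fitted on log2(TPM + 1). Filled points have p under 0.01, and the dashed line is the median of all genes tested. Filled points number 7, 0, 1 and 1.

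The effect of IMN differed between genotypes for 3 of the 33 genes at the nominal threshold, Smpd1, Ppt1 and Neu1, all 3 with a more positive effect in Brd1+/- mice. Of the 25394 genes tested, 2.97% passed in this direction and 3.74% in either, none passed an FDR of 5% (0.0%), and 16.2% had a p under 0.05 against 10 of the 33 genes. With sample quality weights 7 of the 33 passed an FDR of 5%. In that fit 13.6% of all genes had a p under 0.01, and their share at that FDR was not computed. The difference in effect was 0.45 ± 0.15 (SE) for Smpd1, 0.32 ± 0.11 for Ppt1 and 0.48 ± 0.17 for Neu1, each with adjusted p = 0.261 (limma). The call of Neu1 held in only 12 of the 31 fits that left out 1 mouse each, that of Ppt1 in 29 and that of Smpd1 in all 31. This contrast uses the same WT vehicle mice as the comparisons above. Without mice 1, 2, 4, 5 and 7 of that group the differences were 0.10, 0.14 and 0.15, and with the cortical score as a covariate 0.25, 0.20 and 0.29, and none was called. Smpd1 was still called after median-of-ratios scaling, whereas Ppt1 (0.18) and Neu1 (0.35) were not. The median difference was 0.22 over the 33 genes and 0.09 over all genes, and 0.08 and 0.01 after median-of-ratios scaling.

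Other genes of the pathway, from 6 lists, gave a frame for these values. For these lists no fit used marker scores as covariates or left out mice. The part of the WT vehicle punches in their counts was therefore not tested. Of the 18 subunits and accessory proteins tested of the V-ATPase, the proton pump that acidifies lysosomes and also synaptic vesicles, 14 were lower and none higher in Brd1+/- vehicle mice, with a median of −0.39, where 12.1% of all genes were lower and their median was −0.13. The count was 9 with median-of-ratios scaling, where 5.19% of all genes were lower, and 8 with quantile normalization, where 4.97% were. Atp6v0d1 (141 against 196 TPM, −0.46 ± 0.10, SE) and Atp6v1d (106 against 131 TPM, −0.30 ± 0.06) had the smallest p of this list, both with adjusted p = 0.0556 (limma). In WT mice 8 of the 18 were lower with IMN than with vehicle, where 5.6% of all genes were, led by Atp6v0c (407 against 610.2 TPM, −0.56 ± 0.14, SE), and 6 with median-of-ratios scaling and 3 with quantile normalization, where 3.11% and 2.78% of all genes were lower. In Brd1+/- mice none was, nor was any in the genotype comparison under IMN.

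In the other lists, the share of genes lower in Brd1+/- vehicle mice is to be read against the 12.1% of all genes, and that of genes higher against 1.47%. Of 29 further lysosomal enzymes 4 were lower and none higher, among them the protease Ctsk (1.01 against 2.35 TPM). The count was 2 of 19 for further membrane proteins, with Laptm4b (20.01 against 48.3 TPM, −1.10 ± 0.26, SE) and the calcium channel Tpcn2. It was 1 of 9 for mannose-6-phosphate sorting, which delivers hydrolases to lysosomes, and 2 of 18 for MiT factors and lysosomal mTORC1 signaling, the GTPases Rraga and Rragb. After median-of-ratios scaling these 4 lists had 1, 1, 0 and 0 lower and 2, 3, 0 and 1 higher, where 5.19% of all genes were lower and 9.19% changed in either direction. Of 28 further genes of sphingomyelin and ceramide metabolism, 7 were lower and 3 higher, and 3 lower and 4 higher after that scaling. The smallest p there were those of Sgpp1, a sphingosine-1-phosphate phosphatase (16.6 against 20.3 TPM), and of Ugcg, which makes glucosylceramide (30.1 against 37.2 TPM), both with adjusted p = 0.0556 (limma).

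With IMN, Ugcg was lower in both genotypes. In WT mice it was 29.4 against 37.2 TPM (−0.33 ± 0.09, SE, adjusted p = 0.141, limma) and in Brd1+/- mice 25.4 against 30.1 TPM (−0.24 ± 0.07, adjusted p = 0.426, limma). These 2 comparisons share no mouse. Sgpp1 was higher with IMN in Brd1+/- mice (19.8 against 16.6 TPM, 0.24 ± 0.06, adjusted p = 0.285, limma), as were Mlst8, a subunit of mTORC1 (18.9 against 9.26 TPM), and Cln6 (6.64 against 5.16 TPM), and the sorting adaptor Gga3 was lower (31.03 against 40.3 TPM). In the genotype comparison under IMN no gene of the 6 lists passed on the deposited scale, and 1 gene of the MiT and mTORC1 list was higher under either scaling. In the interaction, Atp6v0e2 (0.50 ± 0.13), Dpp7 (0.66 ± 0.21) and Cln6 (0.69 ± 0.22) had the smallest p, each with adjusted p = 0.261 (limma).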

How the data were processed

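Punches of right CPu from 31 female mice were sequenced by the authors, single-end on the BGISEQ-500 platform. Reads were aligned to GRCm38 with HISAT2 2.1.0 and quantified with StringTie 1.3.4, and the submitters' processing notes also name Trimmomatic and FastQC. The authors deposited TPM for 52636 Ensembl identifiers, with no replicates pooled. TPM sums were 999787 to 999918 per mouse, so the depth of each mouse cannot be read from the values (the study's methods give only a minimum number of reads per sample), and precision rests on the spread between mice. GENCODE M21 (GRCm38) named 52403 identifiers, and 15 of the 33 lysosomal genes share exon bases with another gene. Groups came from the sample labels.

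For each comparison, log2(TPM + 1) values entered a linear model of limma (version 3.58.1, run under R 4.3.3) with a variance trend. Genes were kept if no fewer than 7 mice of that comparison exceeded 0.1 TPM, and all 33 were kept. Adding 1 to TPM understates changes of low genes. Tests were two-sided, a call was p under 0.01, the nominal threshold of the study, and adjusted p are Benjamini-Hochberg over all genes tested. The study's edgeR test needs counts and was not run. Smpd1 was also tested by exact permutation (scipy 1.17.1). The fit was also run on simulated data, with independent genes and an equal spread in all mice of a comparison. That run does not bear on the wider spread of the WT vehicle group.

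Members and lists were chosen with earlier results of these data known. The genes named were Smpd1 and Asah1, up to 10 members with the smallest p among those called, the 3 with the highest and lowest level and CV, and up to 2 genes per pathway list and comparison. Members outside this rule (such as Glb1 and Scarb2) were named after their values were seen. Some genes that the rule selects are not reported here. Alternatives were a pseudocount of 0.1, other filters, median-of-ratios scaling, quantile normalization, no trend, sample weights, a replicate block, a single fit, marker scores as covariates and omission of mice. Omitting WT vehicle mice 1, 2, 4, 5 and 7, or 1 and 2, was added after seeing the data.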

Additional observations from a re-analysis of the deposited data

Results flagged for a closer look

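Single mice lay far from the rest of their group in 8 of 148 sets of values tested by Dixon's criterion, which flags about 1 in 20 groups by chance. WT vehicle mouse 1 stood above its group for Npc1 (52.6 TPM), Npc2 (32.8 TPM), Ctsd (303 TPM) and Tfeb (11.8 TPM). Lamp1 was high in Brd1+/- vehicle mouse 2 (219.6 TPM), Tfeb was high in WT IMN mouse 5 (7.06 TPM), and Grn was low in Brd1+/- IMN mouse 4 (26.9 TPM). The striatal marker score of WT IMN mouse 5 was 8.11, below the other mice of that group.

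The effect of IMN differed between genotypes by a test of the interaction for Smpd1 (0.45), Neu1 (0.48) and Ppt1 (0.32), on the log2 scale and at an unadjusted p under 0.01. None passed after adjustment over all genes.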

How the results depend on the processing

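Of the 7 genes called under vehicle, all kept their negative sign in every alternative. The number called, 7 as reported, was 2 with median-of-ratios scaling (9.19% of all genes), 2 with quantile normalization (9.53%) and 12 with sample quality weights (26.5%). It was 1 with the cortical and 1 with the microglial score as a covariate and 0 with the striatal score. Without WT vehicle mice 1, 2, 4, 5 and 7 it was 0, and without mice 1 and 2 it was 4 (5.89% of all genes). Leaving out 1 mouse each gave 5 to 10, while 8.89% to 22.4% of all genes were called. For IMN in WT mice the number, 1 as reported, was 0 with median-of-ratios scaling, 10 with sample weights, 9 with all groups in one fit, 0 with the cortical and 0 with the striatal score, 0 in both omissions of WT vehicle mice, and 1 to 9 when 1 mouse was left out (9 without WT vehicle mouse 6, 8 without mouse 8, 3 without WT IMN mouse 5). The share of all genes called was 20.3% with weights, 13.5% in one fit, and 13.6%, 15.3% and 10.3% without these mice, against 6.95%. With quantile normalization the 1 call was Gaa, higher, and with the microglial score Man2b1, lower, in place of Ctsb. For IMN in Brd1+/- mice it was 1 throughout except 0 with the striatal score. For the interaction, 3 as reported, it was 1 with either scaling, 10 with sample weights, 0 with each of the 3 scores (median of the 33 0.10 with the cortical, 0.12 with the striatal and 0.28 with the microglial score, against 0.22), 0 in both omissions, and 2 to 8 when 1 mouse was left out (7 without WT vehicle mouse 6, 8 without mouse 8, 6 without WT IMN mouse 5). The share of all genes called in the interaction was 13.6% with weights and 9.28%, 10.2% and 6.62% without these mice, against 3.74%. For the genotype comparison under IMN it was 0 in every alternative. The permutation value of Smpd1 under vehicle was −0.27 after median-of-ratios scaling (exact permutation p = 0.0121). The cause of these shifts was not tested.

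Mouse numbers were not taken to pair the mice, since in no comparison were all correlations of same-numbered mice above 0.1 (range −0.41 to 0.43 over the 4). For IMN in Brd1+/- mice they ran from −0.08 to 0.23, with 3 of 7 pairs above 0.1 and 3 mice correlating best with their own number. With the number as a replicate block, 8 genes were called under vehicle (17.7% of all genes), with Gla and Tpp1 no longer called. Of the 33, 7 passed an FDR of 5% there, and that share of all genes was not computed. The number called was 0 under IMN, 1 and 1 for IMN in WT and Brd1+/- mice, and 2 for the interaction. WT vehicle mouse 8 has no partner in the vehicle comparison and drops out under the block, so the fold changes there equal those without that mouse and the count is not an effect of the block alone.

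TPM carries no read depth, so no counting error is given for low genes such as Sgsh, Naglu and Gla.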
